A study of Mus musculus with 8 samples.

Results

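The genes described here are 9 genes of the primary cilium and of polycystic disease, *Dcdc2a*, *Bicc1*, *Pkhd1*, *Pkd1*, *Pkd2*, *Cys1*, *Ift88*, *Kif3a* and *Arl13b*, of 24341 genes measured by total RNA sequencing of the mouse pancreas bud. They were found by symbol, and all 9 were in the table. The list was drawn up with the mutant and WT levels of these same libraries known, and *Dcdc2a* was selected on its FPKM difference between them, so their values in wild-type and mutant buds are a description and carry no test. The 8 libraries each held 1 bud dissected at E11.0, with about 40 somites, from embryos of the CD1 strain as labelled. In 5 of them the bud was WT, and in 3 it was *Pdx1Creearly;Lats1f/f;Lats2f/f* (*Lats1/2* PanKO), in which Cre under the *Pdx1* promoter deletes both floxed LATS kinases, the inhibitory kinases of the Hippo pathway, from pancreatic progenitors. The paper's methods name CD1 mice for WT analyses and otherwise the floxed and Cre lines, with WT or heterozygous littermates compared to mutants. Whether genetic background differed between the genotypes here is therefore not known. The mesenchyme had been pulled off with forceps, so a bud also held whatever other cells stayed attached.

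A primary cilium is a single antenna of microtubules that projects from the apical side of an epithelial cell. Intraflagellar transport carries its parts along the axoneme, and the polycystins and fibrocystin lie in its membrane. When these proteins are missing, tubules widen into cysts, in the kidney and also in the bile and pancreatic ducts. In the pancreas, cilia are found on duct cells, on their progenitors and on islet cells, and are absent from acinar cells.

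*Dcdc2a*, *Bicc1* and *Pkd2* were higher in all 3 mutant buds than in any WT bud, and *Pkhd1* was higher in 2 of the 3. The genes that build the cilium, *Ift88*, *Kif3a* and *Arl13b*, and the polycystin-1 gene *Pkd1* had overlapping ranges in the genotypes. *Cys1* was near 0 in every bud but 1. Mutant replicate 3 was the highest of the 8 libraries for 5 of the 9 genes, and WT replicate 5 for the other 4, so each difference is also given without mutant replicate 3.

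RefSeq promoter sequences were at hand for 8 of the 9 genes, all but *Bicc1*. They were searched on both strands, over the 250 bases before the start on GRCm38.p6, for the TEAD site GGAATG, bound by the partners of the Hippo effectors YAP1 and TAZ. It stood in the window of *Pkd2* alone, and in 12.6% of all 32851 promoters. The RFX X-box of ciliary genes was looked for as well and stood in 0 of the 8, and in 0.374% of all promoters. The windows of the 2 genes with promoter entries that were higher in all mutant buds are shown, with the TEAD match in capitals: *Dcdc2a* at chr13:25055754-25056003 on the plus strand, which held no match, and *Pkd2* at chr5:104459207-104459456 on the plus strand, with the match 43 bases before the start. The RefSeq gene spans begin upstream of these windows, at 25055273 for *Dcdc2a* and 104453982 for *Pkd2*, and those outer starts were not searched. A match is a run of letters, not a shown binding site, and the lack of one says nothing of the factor.
Dcdc2a: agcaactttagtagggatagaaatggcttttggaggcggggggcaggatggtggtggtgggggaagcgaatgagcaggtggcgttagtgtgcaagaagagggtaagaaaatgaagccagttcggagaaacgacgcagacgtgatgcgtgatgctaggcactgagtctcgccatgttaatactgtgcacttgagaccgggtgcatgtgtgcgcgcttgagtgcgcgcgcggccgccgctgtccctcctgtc
Pkd2: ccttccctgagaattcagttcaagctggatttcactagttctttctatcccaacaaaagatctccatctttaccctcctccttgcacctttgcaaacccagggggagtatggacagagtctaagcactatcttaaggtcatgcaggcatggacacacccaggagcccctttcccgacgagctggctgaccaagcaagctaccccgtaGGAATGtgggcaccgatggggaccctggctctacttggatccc

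Levels were given by the authors as FPKM, a measure scaled to transcript length and to library size, so they can be compared between genes. In WT buds *Bicc1* was the highest at 27.3 ± 4.02 FPKM (SD, n = 5), followed by *Pkd2* at 22.7 ± 1.29, *Kif3a* at 15.4 ± 1.56, *Ift88* at 10.7 ± 1.33, *Arl13b* at 9.19 ± 1.79 and *Pkd1* at 5.82 ± 0.823. *Pkhd1*, *Dcdc2a* and *Cys1* came last at 0.231 ± 0.103, 0.149 ± 0.0898 and 0.103 ± 0.0962 FPKM. The ranges of *Bicc1* and *Pkd2* overlapped, as did those of *Ift88* and *Arl13b*, and those of the lowest 3 genes, so the order inside these groups does not exceed the spread between buds. Before ducts have formed, then, transcripts of the cilium-building genes were present in every WT bud, while fibrocystin, DCDC2A and cystin transcripts were barely detected. In mutant buds *Bicc1* and *Pkd2* still led at 50.9 ± 19.8 and 31.3 ± 5.38 FPKM (SD, n = 3), and *Dcdc2a* stood at 3.07 ± 2.85.

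**Figure D1:**
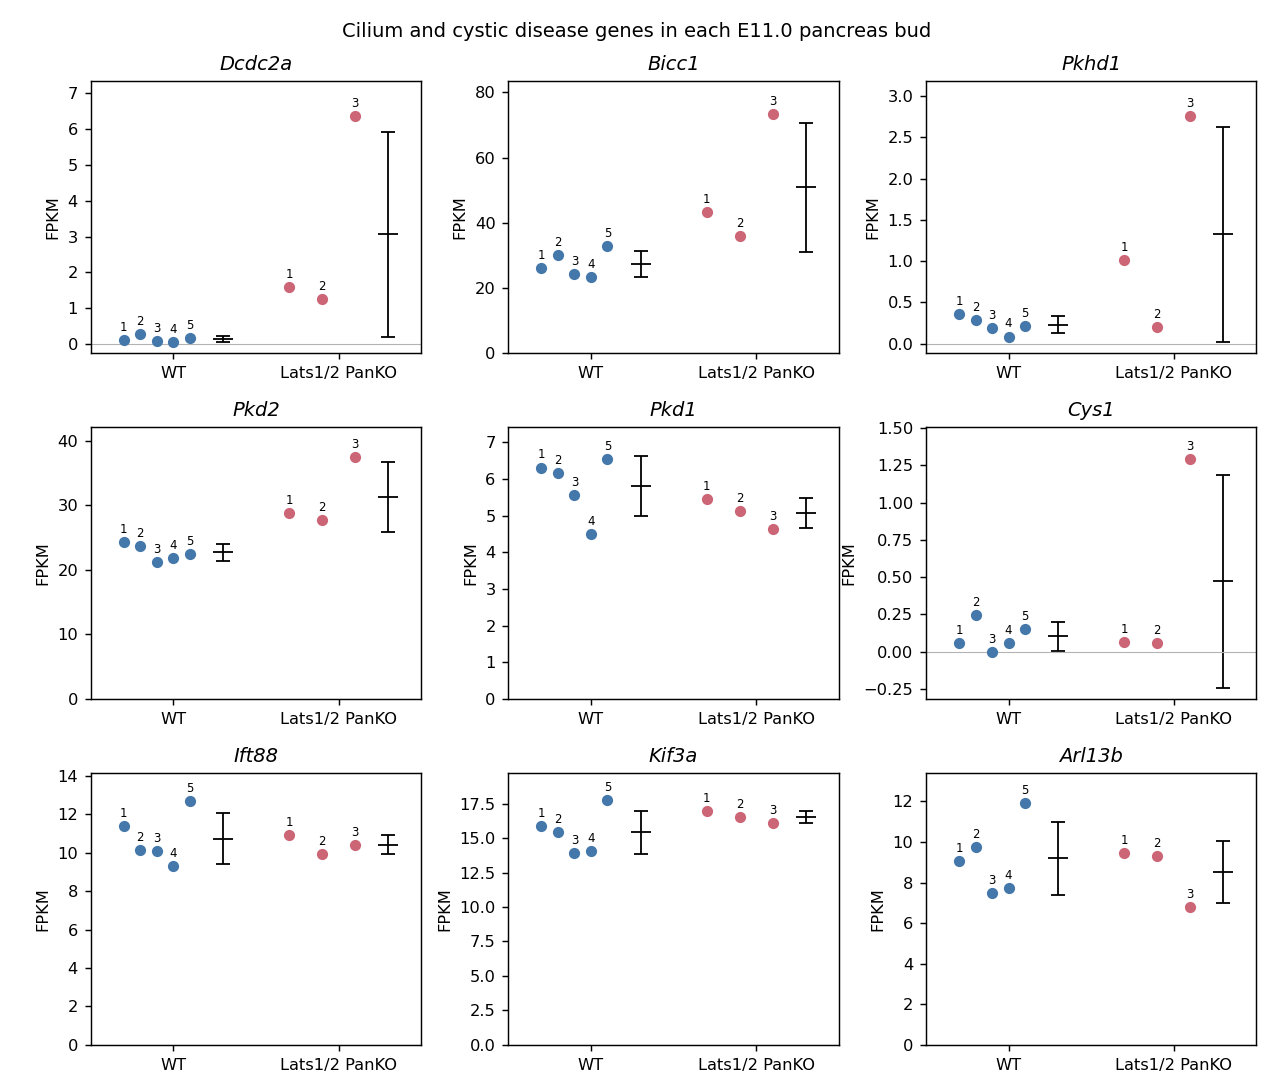
FPKM (linear y axis, with its own scale including 0 in each panel) of the 9 genes in each bud, WT in blue and *Lats1/2* PanKO in red, with the replicate number above each point and the group mean ± SD in black. *Dcdc2a*, *Bicc1* and *Pkd2* lie above the WT range in all 3 mutant buds, and mutant replicate 3 alone carries *Cys1* to 1.29 FPKM.

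The first group is the membrane proteins whose loss causes polycystic disease. *Pkhd1* (chr1:20057779-20618057) encodes fibrocystin, the protein missing in the recessive form of polycystic kidney disease, which also scars and widens bile ducts. It measured 0.359, 0.293, 0.195, 0.0875 and 0.220 FPKM in WT replicates 1 to 5, and 1.01, 0.204 and 2.76 FPKM in mutant replicates 1 to 3. Mutant replicate 2 lay inside the WT range, and the other two mutant buds lay above it. On log2(FPKM + 1) the mutant mean was 0.77 higher (SE 0.31, limma), and 0.34 higher without mutant replicate 3. WT values this low rest on few fragments: at the worth of 1 fragment read from single-exon genes, and if all came from its only coding transcript of 12935 bases, they correspond to about 11.8 to 45.3 fragments, against about 26.9 to 352.9 in mutant buds.

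*Pkd2* (chr5:104459457-104505819) encodes polycystin-2, a cation channel of the cilium and the endoplasmic reticulum and 1 of the genes of dominant polycystic kidney disease. WT buds had 24.4, 23.6, 21.2, 21.8 and 22.5 FPKM, and mutant buds 28.7, 27.7 and 37.5. The genotypes did not overlap, and the gap between the highest WT and the lowest mutant bud was smaller than the spread among mutant buds. The log2 difference was 0.44 (SE 0.10), and 0.30 without mutant replicate 3.

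*Pkd1* (chr17:24549950-24632627 in the authors' table) encodes polycystin-1, the large receptor-like partner of polycystin-2. It measured 6.31, 6.17, 5.56, 4.50 and 6.54 FPKM in WT buds, and 5.46, 5.13 and 4.64 FPKM in mutant buds. All 3 mutant buds were inside the WT range, with a log2 difference of -0.16 (SE 0.13) and -0.11 without mutant replicate 3, so the genes of the 2 polycystins lay on opposite sides of 0. The locus given for *Pkd1* runs on over its neighbour *Tsc2*, which lies on the other strand and overlaps its end at 24595816-24596508. The reads were strand-specific, and no part of the *Pkd1* value can be assigned to *Tsc2* from this table.

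*Cys1* (chr12:24665838-24681795) encodes cystin, a ciliary membrane-associated protein that is mutated in the congenital polycystic kidney mouse. It was listed at 0.0596, 0.244, 0, 0.0578 and 0.153 FPKM in WT buds, and at 0.0618, 0.0577 and 1.29 FPKM in mutant buds. That is about 0 to 4.2 fragments in 7 libraries and about 23.4 in mutant replicate 3. With a mean under 0.5 FPKM it was left out of the tested genes. Fitted without that filter it differed by 0.32 (SE 0.24) on the log2 scale, and by -0.05 without that bud.

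The second group is 2 cytoplasmic or axonemal proteins. *Bicc1* (chr10:70925096-71159634) encodes an RNA-binding protein that regulates messages including that of *Pkd2*, and mice without it develop cystic kidneys and dilated pancreatic ducts. WT buds had 26.0, 30.1, 24.2, 23.4 and 32.8 FPKM, and mutant buds 43.2, 36.1 and 73.4. Every mutant bud exceeded every WT bud. The log2 difference was 0.82 (SE 0.21), or 1.86-fold between mean FPKM, and it was 0.53 without mutant replicate 3, or 1.45-fold.

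*Dcdc2a* (chr13:25056004-25210706) encodes a doublecortin-domain protein that binds microtubules and lies along the cilium. Its human counterpart is mutated in a nephronophthisis and in a sclerosing cholangitis of newborns, a disease of bile ducts. It measured 0.128, 0.296, 0.0888, 0.0692 and 0.164 FPKM in WT buds, and 1.59, 1.25 and 6.36 FPKM in mutant buds. No mutant bud came near the WT range, and mutant replicate 3 was 4.47 times the mean of the other two. The log2 difference was 1.61 (SE 0.35), and 1.08 without mutant replicate 3. The ratio of mean FPKM was 20.6, and 9.54 without that bud. With its longest coding transcript of 6634 bases, the WT values correspond to about 4.8 to 18.6 fragments and the mutant values to about 84.6 to 417.6, so the size of the ratio depends on a handful of WT fragments.

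The third group builds and loads the cilium. *Ift88* (chr14:57424071-57517936), a core subunit of intraflagellar transport complex B, measured 11.4, 10.2, 10.1, 9.30 and 12.7 FPKM in WT buds and 10.9, 9.92 and 10.4 in mutant buds. *Kif3a* (chr11:53567369-53604246), a motor subunit of the kinesin that drives this transport toward the tip, measured 15.9, 15.4, 13.9, 14.1 and 17.8 FPKM in WT buds and 16.9, 16.5 and 16.1 in mutant buds. *Arl13b* (chr16:62793689-62847040), a small GTPase of the ciliary membrane, measured 9.06, 9.73, 7.48, 7.74 and 11.9 FPKM in WT buds and 9.47, 9.32 and 6.78 in mutant buds. For *Ift88* and *Kif3a* all mutant buds lay inside the WT range, and for *Arl13b* only mutant replicate 3 lay below it. Their log2 differences were -0.03 (SE 0.10), 0.10 (SE 0.09) and -0.09 (SE 0.16), and without mutant replicate 3 they were -0.03, 0.12 and 0.05.

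**Figure D2:**
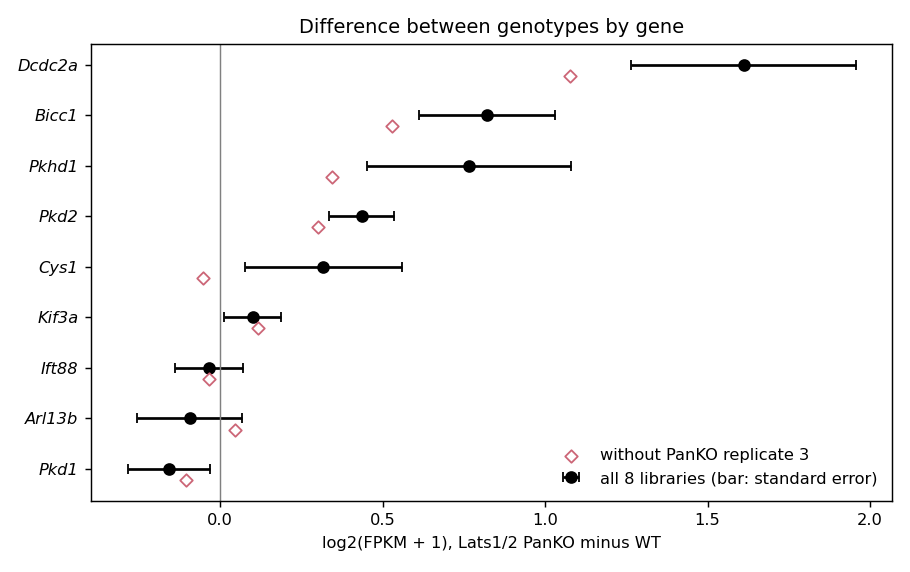
Difference in mean log2(FPKM + 1), *Lats1/2* PanKO minus WT (x axis), for each gene. Black points with the standard error use all 8 libraries, and open diamonds leave out mutant replicate 3, which lowers *Dcdc2a* from 1.61 to 1.08 and *Cys1* from 0.32 to -0.05.

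Across the genome the fit called 2 of 13777 genes at an adjusted p under 0.05, or 0.0145% (limma, Benjamini-Hochberg), and 0 of the 8 genes on this list that could be tested. At an unadjusted p under 0.05, 4 of them passed, all higher in mutant buds (*Dcdc2a*, *Bicc1*, *Pkhd1* and *Pkd2*), where 6.29% of all tested genes passed as higher. All 3 mutant buds exceeded all 5 WT buds for 3 of the 9 genes and for 4.46% of all tested genes. They were below all WT buds for 0 of the 9, against 3.06%. Because the list was made knowing this contrast, nothing is read from these shares. *Dcdc2a* and *Pkhd1* passed the filter on low values only through the mutant buds, where they were high. With limma array weights, which weigh mutant replicate 1 most, 174 genes were called, *Dcdc2a* and *Bicc1* among them. The median log2 difference of the 9 genes was 0.32, beside -0.01 over all tested genes, and 0.12 without mutant replicate 3.

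The mutant buds also held more epithelial transcript. All 13 general epithelium markers were higher in them, all 13 at an unadjusted p under 0.05 and 0 at an adjusted one (limma), and their summed level was 224 to 290 FPKM in WT buds but 498, 428 and 1028 FPKM in mutant replicates 1 to 3. Of 12 mesenchyme markers tested, 12 were lower, with sums of 594 to 844 FPKM in WT and 272 to 621 in mutant buds, and so were 8 of 8 endothelium markers. Fetal liver markers, of a neighbouring tissue whose bile duct cells also carry cilia, summed to 108 to 190 FPKM in WT and 192, 154 and 448 in mutant buds. Most of this sum was *Ttr*, with means of 102.6 FPKM in WT and 191.3 in mutant buds. *Afp*, which the paper lists as a known TEAD target, had means of 19.2 and 50.4. *Alb* was at 0.634 to 3.96 FPKM in WT and 0.542 to 4.11 in mutant buds. Mutant replicate 3 was thus the most epithelial and least mesenchymal library and the one with the highest *Dcdc2a*, *Bicc1*, *Pkhd1*, *Pkd2* and *Cys1*. In bulk RNA, fewer cells of a type and less RNA per cell cannot be told apart, and the part that cell makeup played in the differences was not tested. The 9 genes were therefore also expressed per 100 FPKM of the summed epithelium markers, a scale chosen after the data were seen. Among the 13 markers the ratio of mutant to WT mean FPKM ran from 1.72 for *Rab25* to 3.36 for *Grhl2*. Values on this scale thus depend on the markers used, and whether the markers themselves respond to loss of LATS1/2 was not tested.

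On that scale *Dcdc2a* was 0.0496, 0.102, 0.0396, 0.0264 and 0.0578 in WT buds and 0.320, 0.292 and 0.619 in mutant buds. Every mutant bud was above the WT range, with a ratio of means of 7.45. Of all tested genes, 0.305% were above it in all mutant buds on this scale and 78.1% below it, and since *Dcdc2a* was selected on its difference nothing is read from that share. *Bicc1* was at 8.90 to 11.6 in WT and 8.68, 8.43 and 7.14 in mutant buds, all 3 below the WT range. *Pkd2* was at 7.95 to 9.47 in WT and 5.77, 6.47 and 3.65 in mutant buds, also below it, like most genes. *Pkhd1* overlapped, at 0.0333 to 0.139 against 0.204, 0.0475 and 0.268, with a ratio of means of 1.98. *Cys1* overlapped too, with a ratio of 1.38, and *Pkd1*, *Ift88*, *Kif3a* and *Arl13b* were below all WT buds. A separate scaling subtracted the mean log2(FPKM + 1) of these markers, centred over buds, from the log2 values of every gene. It lowered the difference of every gene by the same 1.12, so the median of all tested genes went from -0.01 to -1.13. Any difference under 1.12 thus turned below 0. *Pkhd1* and *Cys1*, near the floor in WT buds, were higher in mutant means on the first scale and lower on the log2 one. On the log2 scale *Dcdc2a* (0.49), *Bicc1* (-0.30), *Pkhd1* (-0.35), *Pkd2* (-0.68), *Cys1* (-0.80) and *Kif3a* (-1.02) lay above the median gene. *Ift88* (-1.15), *Arl13b* (-1.21) and *Pkd1* (-1.28) lay below it. Since all genes shifted alike, each gene's place beside the median is that of the unscaled differences, and nothing further is read from it.

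**Figure D3:**
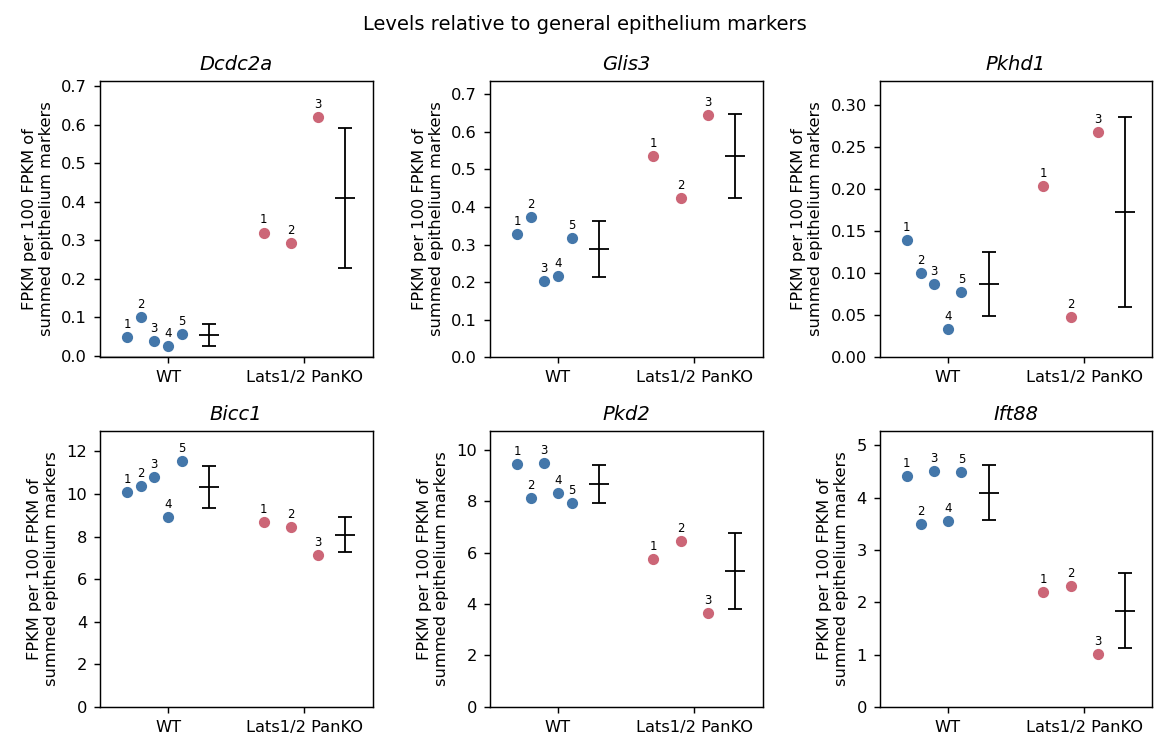
FPKM per 100 FPKM of the sum of 13 epithelium markers (y axis, from 0) in each WT (blue) and *Lats1/2* PanKO (red) bud, with replicate numbers and the mean ± SD in black. *Dcdc2a* and *Glis3* stay above the WT range in all 3 mutant buds, while *Bicc1*, *Pkd2* and *Ift88* lie below it.

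Levels of the 9 genes were correlated over the 8 libraries, which share genotype and epithelial content, so the coefficients describe these libraries only. *Dcdc2a* and *Pkd2* had a Pearson r of 0.98, *Dcdc2a* and *Bicc1* 0.97, and *Pkhd1* 0.92 to 0.93 with these 3. *Cys1* had 0.79 to 0.86 with these and *Pkhd1*. *Ift88*, *Kif3a*, *Arl13b* and *Pkd1* had r of 0.40 to 0.76 among themselves. *Ift88* had -0.09 with *Dcdc2a*, but *Kif3a* had 0.52 with *Bicc1* and 0.42 with *Pkd2*, above its 0.40 with *Pkd1*. The tested genes most like *Dcdc2a* were *Spon1*, *Cnksr1*, *Akr1cl*, *2900026A02Rik* and *Cldn4*, each with r of 0.990. *Cldn4*, a tight junction claudin, ran from 5.84 to 7.49 FPKM in WT buds and was 15.4, 13.4 and 30.0 in mutant buds. Most like *Bicc1* were *Baiap2l1* at r of 0.995, and *Ahr*, *Myof*, *Rnf128* and *Slc38a5* at 0.991 to 0.993. Most like *Pkhd1*, which stayed low in mutant replicate 2, were *Myh9*, *Adgrv1*, *Gprc5c*, *Nfatc2* and *Mfsd6* at 0.986 to 0.989. *Adgrv1*, a giant adhesion receptor, shared the low second bud at 1.54, 0.668 and 3.79 FPKM.

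The rest of the ciliary and cystic machinery was listed in 10 groups, 124 genes of which are in the table and 112 passed the filter. At an adjusted p under 0.05, 0 of the 112 passed in limma. With array weights 5 passed, all higher in mutant buds, among them *Sox9*, *Onecut1*, *Glis3* and *Foxa2*. At an unadjusted p under 0.05, 9 were higher (8.04%) and 4 lower (3.57%), beside 6.29% and 4.99% of all tested genes. All mutant buds exceeded all WT buds for 8 of the 112 (7.14%) and were below them for 3 (2.68%), beside the 4.46% and 3.06% above. The median log2 difference was 0.01, beside -0.01 over all tested genes, with 58 genes higher and 54 lower.

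The relatives of fibrocystin and the polycystins that passed the filter were low. *Pkhd1l1*, the fibrocystin-like gene, had 0.554 to 1.80 FPKM in WT and 1.13 to 2.35 in mutant buds, and *Pkd2l2*, a polycystin-2 relative, 0.432 to 0.957 and 0.839 to 1.09. Among doublecortin relatives, the neuronal microtubule genes *Dcx*, *Dclk1* and *Dclk2* were at 2.94 to 4.43, 2.79 to 3.64 and 1.46 to 2.74 FPKM in WT buds, above *Dcdc2a*. They had log2 differences of -0.11, -0.21 and -0.15, and 0 of the 4 tested passed at an unadjusted p under 0.05.

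In transport complex B, 16 genes were tested and 3 passed at an unadjusted p under 0.05, all lower in mutant buds. *Hspb11*, which encodes a subunit also known as IFT25, had 12.9 to 21.1 FPKM in WT and 9.38, 10.2 and 13.4 in mutant buds (log2 difference -0.62, limma adjusted p = 0.287). *Ttc26* and *Ift80*, both complex B subunits, had differences of -0.27 and -0.18 and did not overlap between genotypes. In complex A, 0 of 6 passed, with a median of -0.02, and of 8 cilium motor genes 0 passed, although *Kif3b*, the partner of *Kif3a*, was 6.26 to 9.09 FPKM in WT and 9.25 to 9.57 in mutant buds. Of 12 GTPase and cargo factors, 0 passed. The BBSome, the coat that moves membrane proteins in and out of the cilium, had 1 of 12 higher at that threshold (*Ttc8*, a log2 difference of 0.25).

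Among 25 genes of the nephronocystins and the transition zone, the gate at the base of the cilium, 1 was higher and 1 lower at an unadjusted p under 0.05. *Glis2*, a zinc finger gene of nephronophthisis, was 14.0 to 16.3 FPKM in WT and 17.0, 17.2 and 22.3 in mutant buds, and *Tmem107* was 2.51 to 5.69 against 1.51, 3.75 and 2.13. Among 15 other cystic disease genes 2 were higher at that threshold. *Glis3*, whose loss causes neonatal diabetes with cystic kidneys, was 0.844, 1.09, 0.456, 0.569 and 0.897 FPKM in WT and 2.67, 1.82 and 6.64 in mutant buds (log2 difference 1.29, limma adjusted p = 0.188). *Dzip1l*, a gene of recessive polycystic kidney disease, was 10.9 to 13.0 against 13.7 to 15.3 (0.22). Both had all mutant buds above all WT buds, and per 100 FPKM of epithelium markers *Glis3* still did, with a ratio of 1.86.

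Transcription factors of cilia and ducts held 5 of the 9 higher genes at the unadjusted threshold. *Sox9*, the marker of duct and progenitor cells, was 25.6 to 33.6 FPKM in WT and 64.4, 48.3 and 110.4 in mutant buds (1.25, limma adjusted p = 0.116). *Onecut1* was 12.0 to 18.4 against 44.6, 28.6 and 96.2 (1.57, limma adjusted p = 0.146). Mutant replicate 3 was again the highest of both. Per 100 FPKM of epithelium markers, *Sox9* overlapped between genotypes with a ratio of 1.06, and *Onecut1* was above the WT range in 2 of 3 mutant buds with 1.34.

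**Figure D4:**
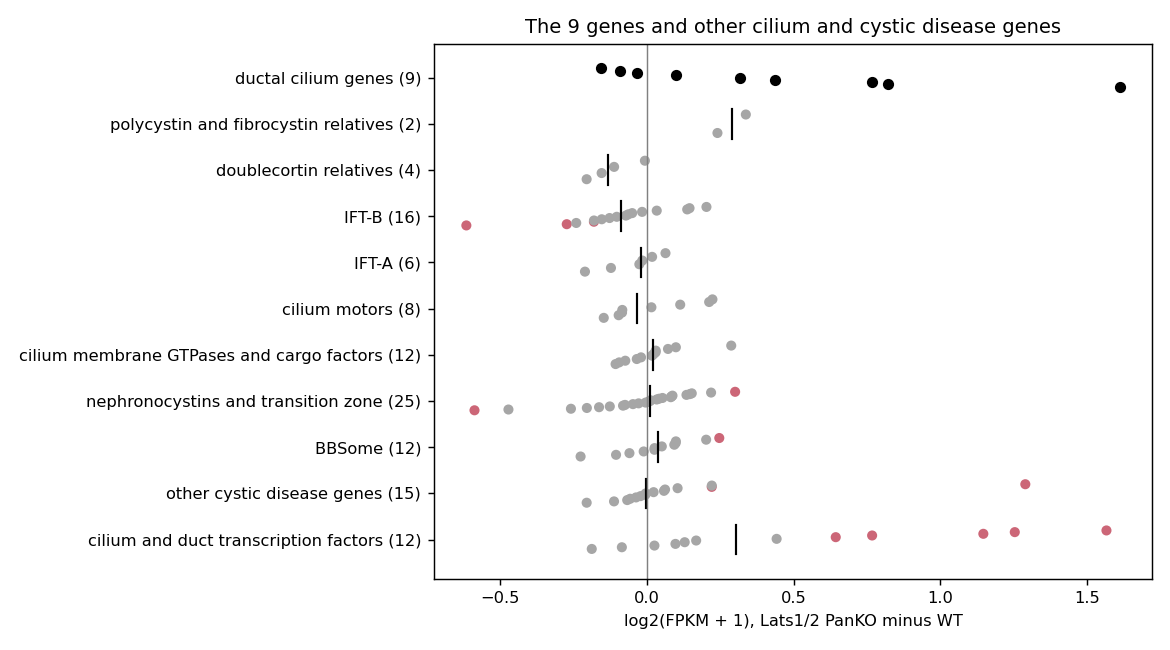
Difference in mean log2(FPKM + 1), *Lats1/2* PanKO minus WT (x axis), for the 9 genes in black and for the 112 tested genes of the 10 other lists, with the number tested in brackets. Red points have an unadjusted p under 0.05, grey ones do not, and vertical bars are list medians, which lie between -0.13 and 0.30.

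The name ductal was checked against markers. Of 9 markers of differentiated ducts, 5 passed the filter. *Krt19* and *Krt7*, keratins of simple epithelium, were at 2.13 to 4.05 and 9.92 to 12.2 FPKM in WT buds and 13.4 to 47.0 and 23.7 to 58.4 in mutant buds. Per 100 FPKM of epithelium markers, *Krt19* was above the WT range in all 3 mutant buds, with a ratio of 2.81. *Krt7* was above it in 2 of 3, with a ratio of 1.30. *Car2*, a carbonic anhydrase that red blood cells express as well, was at 10.2 to 57.6 and 27.9 to 34.1 FPKM, the bicarbonate transporter gene *Slc4a4* at 3.74 to 4.33 and 3.58 to 5.67, and the mucin gene *Muc1* at 1.70 to 2.53 and 2.67 to 5.67. *Aqp1* and *Ggt1* were under the filter. *Cftr*, the chloride channel of duct cells, reached at most 0.080 FPKM in WT and 0.339 in mutant buds, and *Tff2* was listed at 0 in all 8. Early pancreas markers were present, with sums of 54.4 to 94.8 FPKM in WT and 81.5 to 198.9 in mutant buds. Motile cilium markers summed to 4.62 to 5.97 FPKM in WT and 5.93 to 6.39 in mutant buds, with *Gmnc*, needed for multiciliated cells, at 0 in all. Early pancreas markers were thus present, while of the 9 duct markers only 5 passed the filter. The duct markers alone do not give the 9 genes to formed ducts or to progenitors.

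Pearson r of log2 values was 0.94 to 0.96 within genotypes and 0.93 to 0.97 between them. Red blood cell markers varied within WT, with sums of 2620 to 15691 FPKM, and were 7926 to 10113 FPKM in mutant buds. Read totals are unknown from FPKM, and 1 fragment was worth 0.096 to 0.1325 FPKM on a transcript of 1000 bases. *Lats1* measured 14.1 to 16.6 FPKM in WT and 10.1 to 13.8 in mutant buds, and *Lats2* 11.6 to 14.7 against 11.1 to 13.4 FPKM. The genotypes did not overlap for *Lats1* and did for *Lats2*, whose values cover the whole gene and not the floxed exons alone. Mesenchyme and endothelium markers, of cells outside the *Pdx1* domain, were present in every bud.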

How the data were processed

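Total RNA from 8 single buds was sequenced after ribosomal depletion with a stranded kit. The authors aligned the reads to mm10 with TopHat2 2.1.0, and their processing notes name cutadapt 1.12, FastQC and Cuffdiff 2.2.1. The deposited values are FPKM per gene. The study's methods state quantile normalization, but the 8 deposited columns do not share 1 distribution. Groups came from the sample labels.

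The 13777 genes averaging 0.5 FPKM or more entered a limma 3.58.1 fit (R 4.3.3, variance trend) of log2(FPKM + 1), so fold changes of low genes are understated, and p-values were adjusted by Benjamini-Hochberg. Each p-value sets the difference between genotype means against the spread between these buds, with the variance moderated across genes. The script was tested on simulated data. The 9 genes and all lists were chosen with earlier results of these data known. Named are the 9 genes, up to 3 genes of smallest p per list, tested relatives, and the 5 genes most correlated with *Dcdc2a*, *Bicc1* and *Pkhd1*. *Foxa2*, *Kif3b*, *Ttr*, *Afp*, *Alb* and duct markers were singled out after their values were seen. Fragment equivalents came from 393 single-exon genes, with GENCODE M21 lengths. Alternatives were pseudocount, filter, normalization, weights, trend, replicate block, epithelium scaling and leaving out each library. The values of 1 listed gene are not reported here.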

Additional observations from a re-analysis of the deposited data

How the results depend on the processing

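The count of genes called among all tested, 2, was small enough that most settings moved it: 18 with a pseudocount of 0.1 FPKM, 174 with limma array weights, 1 without the mean-variance trend, and 0 to 19 when 1 library was left out (0 without WT replicate 1, 2, 3 or 5, 4 without WT replicate 4, 1, 6 and 19 without mutant replicate 1, 2 and 3). Array weights raised the calls to 2 of the 9 genes and to 5 of the 112 pathway genes, and leaving out a library gave 0 of both. The median log2 difference of the 9 genes ranged from 0.12 (without mutant replicate 3) to 0.51 (without mutant replicate 2), and that of the pathway genes from -0.01 to 0.01. Scaling to the epithelium markers gave -0.80 and -1.11, beside -1.13 over all genes. Without mutant replicate 3 the log2 difference moved by over 1.5 times for *Bicc1* (0.53), *Pkhd1* (0.34) and *Cys1* (-0.05), without mutant replicate 2 for *Pkhd1* (1.16) and *Cys1* (0.51), and without mutant replicate 1 for *Cys1* (0.50). Leaving out 1 library, of either genotype, also moved the near-0 differences of *Ift88* (-0.08 to 0.02) and *Arl13b* (-0.17 to 0.05), which turned above 0 without WT replicate 5 and without mutant replicate 3 respectively. Of 153 single-gene differences under these and the other settings, 141 stayed within 1 SD. All 153 came from unweighted means, so the filter, trend and array-weight settings could not move them and count among the 141. Leaving out 1 library can never shift a difference by more than this SD, which includes that library's own deviation. Those differences therefore had to count among the 141 too, and for all these settings the count says nothing of stability. In the weighted fit itself *Dcdc2a* differed by 1.28 and *Bicc1* by 0.71. The 12 that moved were the 9 scaled to epithelium on the log2 values and 3 with a pseudocount of 0.1 FPKM. Those 3 were *Dcdc2a* (3.37), *Pkhd1* (1.64) and *Cys1* (0.83). Scaling to epithelium lowered every difference by the same 1.12, above the SD of each gene (at most 0.55, *Dcdc2a*), so all 9 had to move. By that shift alone *Bicc1* (-0.30), *Pkhd1* (-0.35), *Pkd2* (-0.68), *Cys1* (-0.80) and *Kif3a* (-1.02) turned below 0. Deviations of same-numbered buds from their genotype means had r of 0.09, -0.10 and 0.07. Mutant replicates 1 and 3 correlated best with the WT bud of their own number, and mutant replicate 2 did not. These coefficients were small and the deviations were centred within genotype, so they do not decide whether the numbers pair the buds. With a replicate block 1 gene was called in all. Beyond the uniform shift under epithelium scaling, the cause of these changes was not tested. Few fragments limit *Dcdc2a*, *Pkhd1* and *Cys1* in WT buds.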
